A study of Homo sapiens with 6 samples.

Results

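*SCRIB*, *DLG3*, *FZD7*, *NKD1*, *TGFB2* and *ID1* are genes of cell polarity, Wnt signaling and TGF-beta signaling, and *AFP* is grouped with them here. All 7 were found by their symbols among the 1161 genes of the deposited table. Their mRNA was measured in MDA-MB-231 cells, a human triple negative breast cancer cell line, recovered from mouse brain. All cells carried GFP and were labelled with the membrane dye CellVue Claret (CV) before injection into the internal carotid artery of female C.B-17 SCID mice, 6 to 8 weeks old. At day 28 the dye-retaining, dormant cells (GFP+CV+) and the dye-negative, proliferating cells (GFP+CV-) were sorted from the same pooled left hemispheres of 10, 10 and 9 mice, which gave 3 Smart-seq2 libraries per population. SCID mice have no mature T and B cells but keep myeloid cells, and dormancy was defined by retention of the dye and not by a cell cycle marker. A library is a pool of sorted cells, so that fewer cells with a transcript and less transcript per cell cannot be told apart.

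Scribble and the DLG proteins are scaffolds that hold the basolateral side of epithelial cells apart from the apical side, and they act upstream of the Hippo kinases, which keep the transcriptional coactivator YAP out of the nucleus. Frizzled receptors such as FZD7 bind Wnt ligands and pass the signal through Dishevelled to beta-catenin, which acts with TCF and LEF factors, and NKD1 and AXIN2 are targets of that pathway that also restrain it. TGFB2 is a ligand of the TGF-beta receptors, and ID1 is a helix-loop-helix protein without a DNA-binding region that is a classical target of BMP signaling through SMAD1. AFP, alpha-fetoprotein, is a secreted protein of fetal liver that KEGG places among the target genes of the Hippo pathway.

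The table holds only genes that the study had called different between these same populations, so the direction and the significance of a listed gene are in part fixed by that selection. Over the listed genes, a library held between 7978657 and 17928784 estimated counts, which is less than its depth, since all other genes are missing from the sum. When edgeR's quasi-likelihood fit was used and p-values were adjusted (Benjamini-Hochberg) over the table, 99.7% of the table passed a threshold of 0.05, with 49.6% higher and 50.0% lower in dormant cells, and 94.5% passed with the replicate number as a block. All 7 genes passed in both fits, a share that cannot be told from this background. When the adjustment covered 20046 genes, the number of protein-coding genes in the annotation, with unlisted genes taken to have larger p-values, 0.258% of the listed genes and none of the 7 passed, although the unadjusted p-values of all 7 were below 0.05. This wider adjustment was made for edgeR p-values only. DESeq2 p-values of the 7, adjusted over the table, ran from 3.03e-11 for *FZD7* to 0.000976 for *AFP* and were not adjusted over 20046 genes. *SCRIB*, *DLG3*, *FZD7*, *NKD1* and *TGFB2* were higher and *ID1* and *AFP* were lower in dormant cells. For each of the 7 the values of the populations were fully apart, as they were for 99.2% of all listed genes. For each of the 7 the two-sided exact permutation p was 0.1, the smallest that 3 against 3 libraries allow.

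Marker genes of other brain and stromal cells moved in the same libraries. Of 11 fibroblast markers, 5 were listed, and their summed normalized read count was 4107 to 7492 in proliferating and 46010 to 74506 in dormant libraries. For astrocytes, 4 of 15 markers were listed, with sums of 603 to 1352 and 7788 to 21953. Both mural cell markers that were listed (of 10), the 1 listed endothelial marker (of 11) and the 1 listed oligodendrocyte marker (of 10) were higher too, at 280 to 468 against 2879 to 5452, at 1.45 to 71.2 against 362 to 1370 and at 74.8 to 188 against 1351 to 3357. Of 15 microglia and macrophage markers, 3 were listed and did not move together. *CD4* was higher in dormant cells, with a mean of 17.1 in proliferating and 1406 in dormant libraries, *ITGB2* was lower, with 830 and 10.8, and *CD74*, which made up most of the sum, was lower, with 76522 and 39379. Their sum was 51095 to 106568 in proliferating and 34731 to 45211 in dormant libraries, and no neuronal marker of 10 was listed. No listed marker was at 0 in all libraries of a population, and markers outside the table are not analysed here. The part of these genes in the results was not tested.

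Among the polarity genes, *SCRIB* (ENSG00000180900.18, GRCh38 chromosome 8, 143790920 to 143815773, minus strand) had normalized read counts of 251, 313 and 140 in proliferating replicates 1, 2 and 3 and of 917, 845 and 1886 in dormant replicates 1, 2 and 3. Every dormant library was above every proliferating one, and dormant replicate 3 stood apart from the other two. On the log2 scale *SCRIB* was higher by 2.37 with a standard error of 0.53 (edgeR adjusted p = 0.00589 over the table and 0.102 over 20046 genes), and 1.91 without dormant replicate 3. Within pools 1, 2 and 3 the log2 ratio of dormant to proliferating cells was 1.87, 1.43 and 3.74.

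*DLG3* (ENSG00000082458.11, chromosome X, 70444835 to 70505490, plus strand) encodes a membrane-associated scaffold with PDZ domains. Its normalized read counts were 1503, 1172 and 1328 in proliferating and 2417, 3079 and 2940 in dormant libraries, so both populations had narrow ranges. The log2 fold change of *DLG3* was 1.08 with a standard error of 0.23 (edgeR adjusted p = 0.00541, or 0.0934 over 20046 genes), and it stayed between 0.99 and 1.17 when single libraries were left out. The *DLG3* counts were whole numbers in all 6 libraries, whereas those of *SCRIB* were fractional in 3. Reads that mapped to several places had been included in the counting, and the source of the fractions was not tested. The antisense gene *DLG3-AS1* lies within *DLG3*, and Smart-seq2 does not keep the strand of a transcript.

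The scaffolds did not keep a fixed ratio. The ratio of *SCRIB* to *DLG3* estimated counts within a library, which does not depend on the size factors, was 0.167, 0.267 and 0.105 in proliferating and 0.379, 0.274 and 0.641 in dormant libraries. The populations did not overlap, although replicate 2 of each nearly met. This pair was chosen after the values had been seen, so the ratio is a description and no p-value is given for it. Of 76 genes on a list of polarity and Hippo genes, 4 were listed, and the table holds 4.75% of all annotated protein-coding genes. These were *SCRIB*, *DLG3*, *AFP* and *PRKCI*, the atypical protein kinase C of the apical polarity complex. *PRKCI* was higher in dormant cells, with 2265, 649 and 1207 against 4485, 3924 and 4456 normalized read counts and a log2 fold change of 1.64 ± 0.43 (SE, edgeR adjusted p = 0.0085). Thus 3 of the 4 were higher, as were 49.6% of all listed genes, and 1 was lower. The median difference of the 4 on the log2 scale was 1.36, against -0.33 over all listed genes. Among higher genes alone it was 1.64, against 1.70 for all listed genes that were higher. *SCRIB*, *DLG3* and *AFP* were chosen with their values known, and without them only *PRKCI* is left. The other DLG and Scribble family members, the Hippo kinases, YAP and the TEAD factors were outside the table and are not analysed here.

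*FZD7* (ENSG00000155760.2, chromosome 2, 202033855 to 202038441, plus strand) encodes a Frizzled receptor. Its normalized read counts were 837, 800 and 687 in proliferating and 4014, 2794 and 2347 in dormant libraries. The proliferating libraries lay close together and dormant replicate 1 was the highest, unlike for *SCRIB* and *NKD1*. *FZD7* was higher in dormant cells by 1.98 on the log2 scale, with a standard error of 0.28 (edgeR adjusted p = 0.00322, or 0.0556 over 20046 genes).

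*NKD1* (ENSG00000140807.6, chromosome 16, 50548396 to 50649249, plus strand) encodes a Dishevelled-binding antagonist. Its normalized read counts were 1653, 2877 and 1543 in proliferating and 6294, 8708 and 12965 in dormant libraries. Dormant replicate 3 was again the highest, and proliferating replicate 2 was the highest of its population. The log2 fold change of *NKD1* was 2.20 with a standard error of 0.35 (edgeR adjusted p = 0.00322, or 0.0556 over 20046 genes). Without dormant replicate 3 it was 1.89.

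A set of noncoding neighbours of *NKD1* was also higher in dormant cells. *AC007608.4* (50555355 to 50558719, plus strand) and *AC007608.2* (50551824 to 50553940, minus strand) lie inside the *NKD1* gene, and *AC007493.1* (50407184 to 50546347, plus strand) ends just before its start. *AC007608.4* had 838, 441 and 562 normalized read counts in proliferating and 5465, 6112 and 16254 in dormant libraries, a log2 fold change of 3.92 ± 0.51 (SE). *AC007493.1* had 153, 485 and 415 against 7526, 10002 and 20408, a log2 fold change of 5.17 ± 0.59 (SE). Both had their highest value in dormant replicate 3, as did *NKD1* and 65.6% of all listed genes that were higher. *AC007608.2* was listed at 0 in all proliferating libraries and had 85, 24 and 18 estimated counts in dormant replicates 1, 2 and 3. It thus peaked in dormant replicate 1, unlike *NKD1*. The *NKD1* counts were fractional in 4 of 6 libraries, and reads of the overlapping genes cannot be told apart by strand. The neighbours were picked by position, as all listed genes within 500 kb of a gene described here, after their values had been seen. Of the others, *BMPR2* near *FZD7* is described with the BMP receptors, *CYC1* near *SCRIB* and *PDZD11* near *DLG3* were lower in dormant cells, with log2 fold changes of -0.58 and -0.65, and no listed gene lies this close to *TGFB2* or *ID1*.

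Of 117 genes on a list of Wnt pathway genes, 16 were in the table, which holds 4.75% of all annotated protein-coding genes. Of the 16, 14 were higher in dormant cells, as were 49.6% of all listed genes, and *LGR4* and *RAC2* were lower. All 16 passed the edgeR test over the table, as did 99.7% of its genes, and none passed over 20046 genes. With libraries scaled to the median ratio of the listed genes 12 passed, 10 of them higher, and the calls of *DVL3*, *AXIN2*, *CSNK1E* and *TBL1XR1* were lost. The median log2 fold change of the 16 was 1.76, or 1.13 with that scaling. Among the higher genes alone it was 1.86, against 1.70 for all listed genes that were higher. Without *FZD7* and *NKD1*, 12 of 14 were higher and the median was 1.53. Which genes were expressed but not listed is not known from the table, so these counts describe the listed genes and not the pathway as a whole.

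Among the receptors, *FZD2*, a close relative of *FZD7*, had 435, 278 and 244 normalized read counts in proliferating and 477, 1166 and 2931 in dormant libraries. Its log2 fold change was 2.26 (standard error 0.67) and was 1.36 without dormant replicate 3. The adjusted p of *FZD2* was 0.013, or 0.0508 in edgeR without proliferating replicate 3, and dormant replicate 1 barely exceeded proliferating replicate 1. Thus *FZD2* peaked in the dormant library in which *FZD7* was lowest, and the within-library ratio of *FZD7* to *FZD2* was 8.40, 2.40 and 0.801 in dormant replicates 1, 2 and 3, against 1.93, 2.88 and 2.82 in proliferating ones. The receptors of R-spondins, which raise Wnt receptor levels, moved in opposite directions. *LGR6* had 1271, 1735 and 2151 against 4868, 15685 and 6106 normalized read counts, with a log2 fold change of 2.37 ± 0.47 (SE), or 1.67 without dormant replicate 2. *LGR4* had 115, 392 and 326 normalized read counts in proliferating libraries and 7.61, 15.4 and 0 in dormant ones, with a log2 fold change of -5.12 ± 1.22 (SE), or -6.05 without dormant replicate 2.

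*AXIN2*, *LEF1* and *SP5* are known as targets of the pathway, and each was higher in dormant cells. *AXIN2*, a scaffold of the beta-catenin destruction complex, had 1690, 1302 and 1023 against 2277, 2891 and 4478 normalized read counts and a log2 fold change of 1.26 ± 0.33 (SE), or 0.66 with the median ratio (edgeR adjusted p = 0.059). *LEF1*, a partner of beta-catenin on DNA, had 1701, 1546 and 1603 against 3267, 3771 and 10145, with a log2 fold change of 1.82 ± 0.44 (SE), or 1.12 without dormant replicate 3. *SP5*, a zinc finger target gene, was low in proliferating cells, with 33.3, 84.1 and 67.5 normalized read counts against 392, 885 and 521, a log2 fold change of 3.28 ± 0.65 (SE). The populations did not overlap for these genes, nor for 99.2% of all listed genes.

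*APCDD1*, a membrane protein that inhibits Wnt signaling, was nearly absent from proliferating libraries, with 0, 2.16 and 17.1 normalized read counts, and had 929, 828 and 1565 in dormant ones. Its fitted log2 fold change was 7.40 (standard error 1.34), or 10.05 without proliferating replicate 3. Cytoplasmic components were also higher, with log2 fold changes of 0.99 for *DVL3* (a Dishevelled), 0.74 for *CSNK1E* (a casein kinase) and 1.69 for *GSK3B* (the kinase that marks beta-catenin for destruction). So were the nuclear cofactors *TLE1*, a corepressor, at 1.89 and *TBL1XR1* at 1.13. With the median ratio *DVL3* and *CSNK1E* had log2 fold changes of 0.38 and 0.16 and no longer passed. *RAC1* was higher, with a log2 fold change of 1.38, and *RAC2*, which is typical of blood cells, had one of -1.03. Higher genes therefore included activators and inhibitors of the pathway alike.

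**Figure D1:**
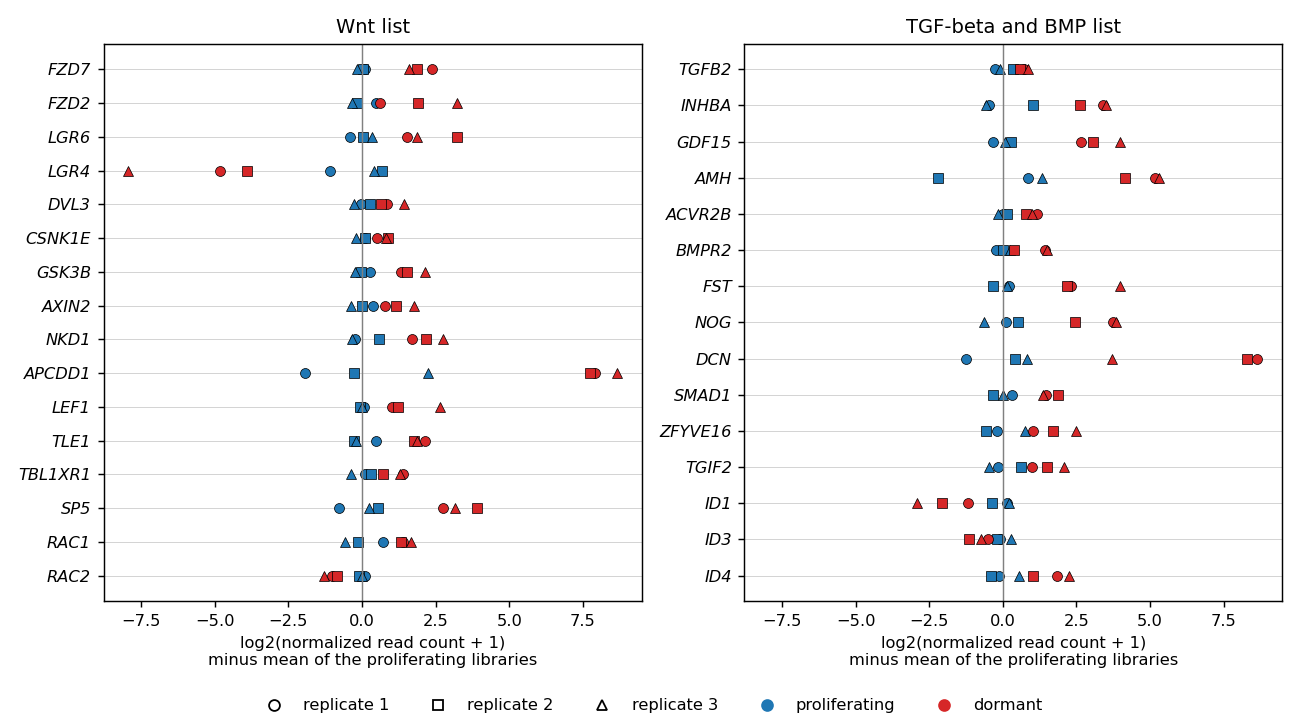
Each library's log2(normalized read count + 1) minus the mean of the proliferating libraries (horizontal axis) for the 16 listed Wnt genes (left) and the 15 listed TGF-beta and BMP genes (right), with blue for proliferating and red for dormant libraries and symbols for replicates. Only *LGR4*, *RAC2*, *ID1* and *ID3* lie to the left in dormant libraries.

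*TGFB2* (ENSG00000092969.11, chromosome 1, 218345336 to 218444619, plus strand) had normalized read counts of 7889, 11979 and 8835 in proliferating and 15407, 14123 and 17029 in dormant libraries. Replicate 2 was both the highest proliferating and the lowest dormant library, and in pool 2 the log2 ratio was 0.24, against 0.97 and 0.95 in pools 1 and 3. The log2 fold change of *TGFB2* was 0.70 with a standard error of 0.18 (edgeR adjusted p = 0.00781, or 0.135 over 20046 genes), the smallest of the 7 genes. With libraries scaled to the median ratio of the listed genes, it was 0.11 with an adjusted p of 0.607. The *TGFB2* counts were fractional in all 6 libraries, and the noncoding genes *TGFB2-OT1* and *TGFB2-AS1* overlap it.

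*ID1* (ENSG00000125968.8, chromosome 20, 31605283 to 31606515, plus strand) went the other way. Its normalized read counts were 14741, 10323 and 15359 in proliferating and 5834, 3177 and 1756 in dormant libraries. The dormant libraries spread over a wider relative range, with replicate 3 the lowest. The log2 fold change of *ID1* was -1.91 with a standard error of 0.41 (edgeR adjusted p = 0.00551, or 0.0951 over 20046 genes). It was -2.45 without dormant replicate 1 and -1.58 without dormant replicate 3, the extremes when single libraries were left out. No annotated gene overlaps *ID1*, and its counts were whole in all 6 libraries.

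The listed relatives of *ID1* split. *ID3* was lower too, with 12765, 12163 and 16857 normalized read counts in proliferating and 9652, 6264 and 8290 in dormant libraries, and a log2 fold change of -0.79 ± 0.20 (SE). *ID4*, which was far less abundant, was higher, with 194, 160 and 314 against 770, 438 and 1014 and a log2 fold change of 1.74 ± 0.54 (SE). The edgeR adjusted p of *ID4* rose to 0.0514 without proliferating replicate 2. Ratios within a library are free of the scaling. The ratio of *ID1* to *ID3* was 1.15, 0.849 and 0.911 in proliferating and 0.604, 0.507 and 0.212 in dormant libraries. That of *ID4* to *ID1* was 0.0131, 0.0155 and 0.0205 against 0.132, 0.138 and 0.577. The populations did not overlap in either ratio, and as the pairs were chosen after the values had been seen, the ratios are descriptions and no p-value is given for them. For *ID4* to *ID1* an overlap was not possible, since *ID4* was higher and *ID1* lower in every dormant library than in any proliferating one.

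**Figure D2:**
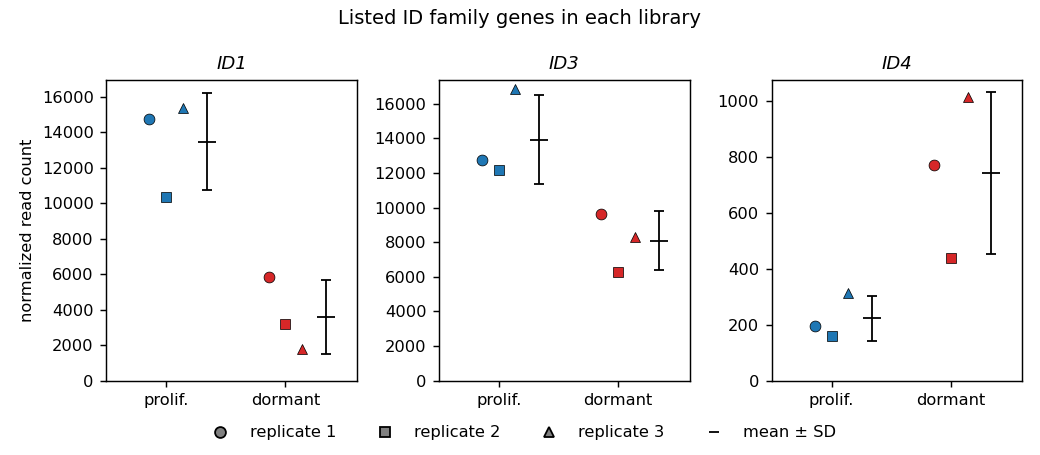
Normalized read counts (vertical axes, from 0) of *ID1*, *ID3* and *ID4* in the 3 proliferating (blue) and 3 dormant (red) libraries, with symbols for replicates and bars for the mean ± SD of 3 libraries. *ID1* and *ID3* are lower and *ID4* is higher in every dormant library than in any proliferating one.

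Of 96 genes on a list of TGF-beta and BMP pathway genes, 15 were in the table, 13 of them higher (49.6% of all listed genes were) and 2 lower in dormant libraries, the lower ones being *ID1* and *ID3*. The median log2 fold change of the 15 was 1.74. Among the higher genes alone it was 1.76, against 1.70 for all listed genes that were higher. All 15 passed over the table, where 99.7% of genes did, and 14 passed with the replicate block, where 94.5% did, *ACVR2B* being lost with an edgeR adjusted p of 0.0619. *ACVR2B* was also lost without any one of the proliferating libraries or dormant replicate 1, with adjusted p from 0.0503 to 0.08. None passed over 20046 genes. With the median ratio, 11 passed, 9 of them higher, and the calls of *TGFB2*, *BMPR2*, *ACVR2B* and *ID4* were lost. Without *TGFB2* and *ID1*, 12 of 13 were higher and the median was 1.76.

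The ligands other than *TGFB2* showed larger differences. *INHBA*, the subunit of activin A, had 280, 800 and 265 normalized read counts in proliferating and 4122, 2396 and 4389 in dormant libraries, a log2 fold change of 3.02 ± 0.52 (SE), or 3.74 without proliferating replicate 2. The ratio of *TGFB2* to *INHBA* counts within a library accordingly was 28.2, 15.0 and 33.3 in proliferating and 3.74, 5.89 and 3.88 in dormant cells. *GDF15*, a stress-induced distant member of the family, had 410, 628 and 539 against 3263, 4304 and 8167 normalized read counts and a log2 fold change of 3.32 ± 0.40 (SE). *AMH*, anti-Müllerian hormone, had 34.8, 3.23 and 48.8 against 698, 349 and 779, with a log2 fold change of 4.38, or 4.97 without proliferating replicate 3.

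Secreted antagonists were higher alongside the ligands. *FST*, follistatin, which binds activins, had 563, 388 and 544 against 2433, 2256 and 7850 normalized read counts and a log2 fold change of 3.07 ± 0.54 (SE), or 2.23 without dormant replicate 3. *NOG*, noggin, which binds BMPs, had 46.4, 61.5 and 26.8 against 584, 238 and 623, with a log2 fold change of 3.42 ± 0.70 (SE). *DCN*, decorin, had 0, 2.16 and 3.25 against 937, 738 and 30.4, with a fitted log2 fold change of 8.25 (standard error 1.67), or 9.07 without proliferating replicate 3. *DCN* also stands on the list of fibroblast markers.

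On the receiving side, *BMPR2*, a BMP receptor, and *ACVR2B*, an activin receptor, had log2 fold changes of 1.19 and 0.99 with standard errors of 0.33 and 0.35. With the median ratio these were 0.57 and 0.41, and neither passed (edgeR adjusted p = 0.118 and 0.319). *SMAD1*, the transducer of BMP signals, had 1856, 1186 and 1474 against 4088, 5389 and 3788 normalized read counts and a log2 fold change of 1.55 ± 0.26 (SE). The endosomal protein gene *ZFYVE16* and the corepressor gene *TGIF2* had log2 fold changes of 1.76 and 1.52. *SMAD1* and *NOG* were thus higher while, of the listed ID genes, *ID1* and *ID3* were lower and *ID4* was higher.

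*AFP* (ENSG00000081051.7, chromosome 4, 73431138 to 73456174, plus strand) was the least abundant of the 7 genes. Its estimated counts were 30, 127 and 48 in proliferating and 0, 0 and 2 in dormant libraries, and the normalized read counts of the proliferating libraries were 21.7, 137 and 39. Proliferating replicate 2 held most of the reads. Summed over libraries, 205 counts stood against 2, and the ratio of the normalized rates was 81.6 (95% exact binomial interval 22.3 to 679, for counting error only and without the spread between libraries). The fitted log2 fold change of *AFP* was -6.21 with a standard error of 1.44 (edgeR adjusted p = 0.00639, or 0.11 over 20046 genes). It was -9.21 without dormant replicate 3, the only dormant library with reads, and -5.10 at the other end. As no dormant count is left in the former fit, -9.21 depends on how the fit treats 0 counts and does not measure a size.

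The albumin gene *ALB*, a paralog that lies next to *AFP*, had the same pattern. Its normalized read counts were 20.3, 94.9 and 84.5 in proliferating libraries, and no dormant library had a count. With 220 counts in proliferating libraries after rounding and a floor of 3 counts over the dormant libraries, *ALB* was at least 58.4-fold lower in dormant cells. Farther along chromosome 4, the chemokine genes *CXCL8* and *CXCL1* were on the higher side, with log2 fold changes of 1.05 (standard error 0.28) and 1.55 (standard error 0.36).

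The KEGG Hippo genes named by the study hold 6 of the 7 genes, all but *TGFB2*. The study limited the genes entered to those with a fold change of 2 or more, and *TGFB2* was 1.62-fold higher. All 15 of them were listed, since they had been taken from this table, and 12 were higher and 3 lower in dormant cells, so the count is not independent evidence of a direction. Beside genes already described, they include *PPP1CC*, a protein phosphatase subunit, with a log2 fold change of 1.27 ± 0.24 (SE), and *ITGB2*, a leukocyte integrin, with -6.23 (standard error 1.17), or -7.63 without dormant replicate 2.

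Promoter windows of *DLG3*, *TGFB2*, *ID1* and *AFP* were given in a RefSeq table (GRCh38.p14), and *SCRIB*, *FZD7* and *NKD1* had no entry. The 250 bases before the start were searched on both strands for 5 short motifs. The TATA box, searched as TATAAA, was found at 29 bases before the start in *TGFB2* and *AFP* and, as an overlapping pair on opposite strands, at 33 and 31 bases in *ID1*, and in none of the 3 *DLG3* windows. Of all 35116 windows, 10.7% hold this motif. The SMAD box, searched as CAGAC, was found at 243 and 53 bases before the start of *TGFB2* and not in the other windows, and 38% of all windows hold it. The GC box, searched as GGGCGG, was found at 90 and 58 bases in *ID1*, in 1 place in one *DLG3* window and in 3 places in another, and 42.6% of all windows hold it. No window of these genes held the core of TCF and LEF sites, searched as CTTTGA, which 11.2% of all windows hold. Nor did any hold the cyclic AMP response element, searched as TGACGTCA, which 1.65% of all windows hold. A match is a description of the letters and does not show that a factor binds.

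The windows of *TGFB2*, *ID1* and *AFP* are shown because these 3 genes differ in direction and all hold a TATA box. The positions are chr1:218345086-218345335, chr20:31605039-31605288 and chr4:73435971-73436220, all on the plus strand, and capitals mark the TATA and SMAD boxes. The RefSeq start of *AFP* used here lies downstream of the start of the annotated gene given above.
TGFB2: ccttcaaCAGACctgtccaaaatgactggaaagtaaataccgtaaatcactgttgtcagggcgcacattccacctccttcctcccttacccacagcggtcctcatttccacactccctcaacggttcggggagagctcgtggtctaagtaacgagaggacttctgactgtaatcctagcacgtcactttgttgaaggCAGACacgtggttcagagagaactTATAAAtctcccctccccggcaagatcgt
ID1: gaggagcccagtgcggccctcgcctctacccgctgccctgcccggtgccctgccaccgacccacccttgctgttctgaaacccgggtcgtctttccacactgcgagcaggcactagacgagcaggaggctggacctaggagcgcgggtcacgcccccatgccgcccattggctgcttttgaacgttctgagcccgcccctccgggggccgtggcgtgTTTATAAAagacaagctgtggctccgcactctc
AFP: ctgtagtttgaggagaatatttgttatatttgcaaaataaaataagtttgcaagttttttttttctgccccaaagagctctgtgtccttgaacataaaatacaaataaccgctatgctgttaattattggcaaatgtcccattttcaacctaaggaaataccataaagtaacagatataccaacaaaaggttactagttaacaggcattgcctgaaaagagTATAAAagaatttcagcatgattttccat
GC content differed, with 50.4% in *TGFB2*, 66% in *ID1* and 31.6% in *AFP*.

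Levels were compared between genes per kilobase of annotated exon. In proliferating cells the mean was 10928 normalized read counts per kilobase for *ID1* and 1581 for *TGFB2*, followed by 169 for *DLG3* and 169 for *FZD7*, 117 for *NKD1*, 35.6 for *SCRIB* and 20.6 for *AFP*. The library ranges of *DLG3* (149 to 191), *FZD7* (150 to 183) and *NKD1* (88.9 to 166) overlapped, as did those of *SCRIB* (21.2 to 47.5) and *AFP* (6.79 to 42.8). In dormant cells the means per kilobase were 2911 for *ID1*, 2565 for *TGFB2*, 665 for *FZD7*, 537 for *NKD1*, 357 for *DLG3*, 185 for *SCRIB* and 0.288 for *AFP*. Here *ID1* (1424 to 4732) and *TGFB2* (2334 to 2815) overlapped, whereas in proliferating cells they were far apart, and *FZD7* (512 to 875) overlapped *NKD1* (363 to 747), which overlapped *DLG3* (307 to 391). The exons of *NKD1* cover 17359 bases in the annotation, which lowers its value per kilobase if long exons are little used.

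Across the libraries of one population the 7 genes differed in which replicate was highest. Of the 5 genes higher in dormant cells, *SCRIB*, *NKD1* and *TGFB2* peaked in dormant replicate 3, *DLG3* in replicate 2 and *FZD7* in replicate 1. Among all 576 listed genes that were higher, 65.6% peaked in dormant replicate 3, so *SCRIB*, *NKD1* and *TGFB2* peaked where most such genes did. After the mean of each population was subtracted, the listed genes with a mean of at least 100 normalized read counts that varied most like each gene over the 6 libraries were *LINC00899* (r = 0.989) and *TUBBP6* (0.985) for *SCRIB*, *CLIC1* (0.986) and *HERPUD1* (0.977) for *DLG3*, and *PROCR* (0.985) and *MPDU1* (0.972) for *FZD7*. For *NKD1* they were *TGIF2* (0.991) and *FLRT2* (0.986), and for *TGFB2* they were *PIN4* (0.995) and *MIRLET7A2* (0.986). For *ID1* they were *SLC30A5* (0.985) and *TAF9* (0.974), and for *AFP* they were *CAMK2D* (0.995) and *LINC-PINT* (0.987). Between 11 and 32 of about 990 genes exceeded an r of 0.9 with each gene, and values of one library share its scaling. The genes named are the highest of about 990 coefficients over 6 libraries, and such a pick alone gives high values. Some changed between populations in the same direction as their gene, such as *TGIF2*. Others changed in the opposite one, such as *LINC00899* with a log2 fold change of -7.72. The coefficients are descriptions only and name no partners.

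The scale set for the libraries changed the sizes of these differences and no direction among the 7 genes. With libraries set to equal totals of the listed genes, the median log2 fold change of all listed genes moved from -0.33 to -0.04, and that of *DLG3* became 1.37 and that of *ID1* -1.59. With the median ratio over the listed genes the median moved to -0.91, *DLG3* had a log2 fold change of 0.49 (edgeR adjusted p = 0.0985) and *TGFB2* of 0.11, and the other 5 genes still passed over the table. Over all listed genes, edgeR called 576 higher and 581 lower as reported, 576 and 372 with equal totals, and 346 and 585 with the median ratio. *SCRIB*, *FZD7*, *NKD1* and *ID1* then had log2 fold changes of 1.75, 1.42, 1.59 and -2.45.

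**Figure D3:**
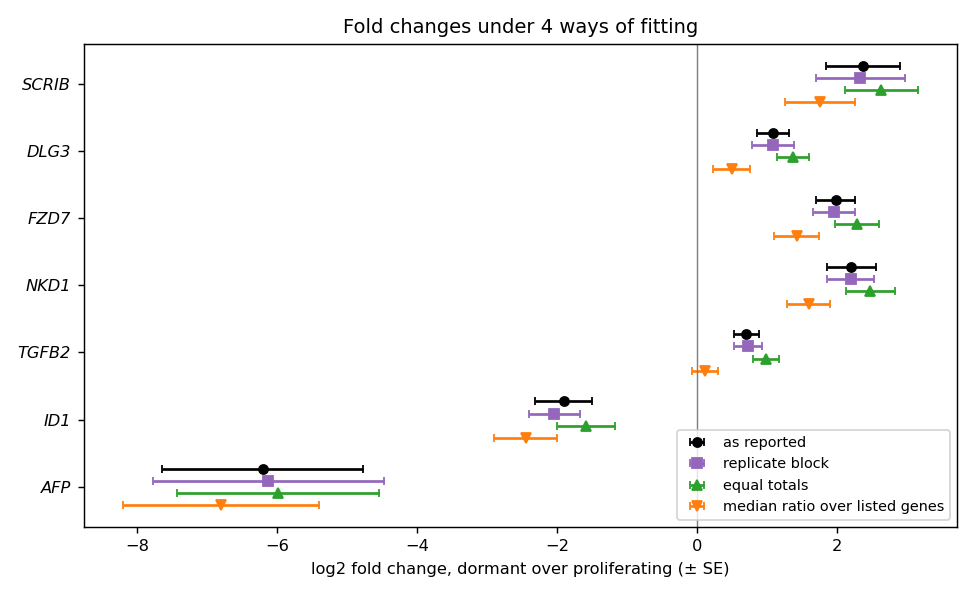
Log2 fold change of dormant over proliferating cells (horizontal axis, ± SE) for the 7 genes as reported, with the replicate block, with equal library totals and with the median ratio over the listed genes. All values of a gene lie on the same side of 0, and *TGFB2* under the median ratio is within 1 SE of 0.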

How the data were processed

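The authors aligned reads with STAR to joined human (GRCh38.p12) and mouse (GRCm38.p6) assemblies with GENCODE release 31 for human, counted them with RSubread including multi-mapping reads, and discarded reads mapping to mouse. As deposited, the estimated counts are in part fractional. The deposited normalized signal values are the authors' rounded counts divided by 1 DESeq2 size factor per library, from 0.724 to 1.38. Columns of the authors' comparison (fold changes, statistics and p-values) were not used. All per-sample columns were matched to a library.

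Estimated counts were rounded and fitted with edgeR 4.0.16 (R 4.3.3, quasi-likelihood, two-sided, all 6 libraries, population as the only term, the authors' size factors, no filter on low counts), with Benjamini-Hochberg adjustment across all 1161 listed genes. The dispersion was estimated from these selected genes. The fit was tested on simulated data in which most genes did not differ, unlike the listed genes. That test therefore does not cover the effect of the selection. Alternatives were DESeq2 1.42.0, limma 3.58.1 on log2 of the normalized count plus 1 or 4, TMM factors, equal totals, median-ratio factors, filterByExpr, truncated counts, the replicate block, adjustment of the edgeR p-values over 20046 genes, and leaving out each library. Same-numbered libraries came from the same pool of mice, which is the source of the pairing. Deviations from the population means had correlations of 0.0567, -0.0183 and 0.00125 between same-numbered libraries.

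The 7 genes and all gene lists were chosen with earlier results of these data known. Named genes are the 7, the listed genes of the pathway, paralog and marker lists, and the 2 genes most like each of the 7. Neighbours within 500 kb and ratio pairs were added after the values had been seen. For *AFP*, with 2 counts in dormant libraries, a ratio with its counting interval replaced the lower bound that had been planned. Gene positions and exon lengths are from GENCODE release 44 on GRCh38. Promoter sequences are from RefSeq. Plots were made with matplotlib 3.10.9.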

Additional observations from a re-analysis of the deposited data

How the results depend on the processing

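The direction of all 7 genes was the same under each alternative that was run. Adjusted over 20046 genes, 3 of the listed genes passed 0.05 (against 1157 over the table), and 0 of the 7 genes, 0 of the 4 polarity and Hippo genes, 0 of the 16 Wnt genes and 0 of the 15 TGF-beta and BMP genes did, although the unadjusted p-value in edgeR's test was under 0.05 for 1157 of the listed genes and for each gene counted here in these groups. For the edgeR p-values this follows from the larger number of genes adjusted over. It raised the edgeR adjusted p of *FZD7*, for example, from 0.00322 to 0.0556. The DESeq2 p-values were not adjusted over 20046 genes. Adjusted over the table they were 0.000976 or less for the 7 genes, lower than those of edgeR. That none of the 7 passed is therefore a result for the edgeR p-values only. With the median ratio over the listed genes 5 of the 7 passed, *DLG3* and *TGFB2* being lost, and 7 passed under the remaining alternatives. With the replicate block, the same-pool pairing, 1097 listed genes passed, and 7, 4, 16 and 14 of the genes above, with no call lost among them other than *ACVR2B*. The block changed no call of the 7 genes. The log2 fold change ran over the alternatives from 1.75 to 2.64 for *SCRIB*, 0.49 to 1.37 for *DLG3*, 1.42 to 2.28 for *FZD7*, 1.59 to 2.54 for *NKD1*, 0.11 to 0.98 for *TGFB2*, -2.45 to -1.58 for *ID1* and -9.21 to -3.50 for *AFP*. The total depth of the libraries is not given by the table, and *AFP* rests on few counts. Its value of -9.21 came from the fit without dormant replicate 3, in which no dormant count was left. The 6 libraries come from 3 pools of mice, each sorted into both populations, and 3 libraries per population limit the precision of each estimate.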
